A study of Mus musculus with 8 samples.

Results

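This report describes 10 genes in glomeruli of mice that lack the tetraspanin Cd151: the secreted ligands Gdf5, Bmp2, Bmp4, Bmp6 and Bmp7, the receptors Bmpr1a and Bmpr2, the extracellular antagonists Nog and Grem1, and the transcription factor gene Scx. They were taken as the rows of the signal table whose gene symbol equals 1 of these names, which gave 12 probes of 25697 in the table and 10 of its 18120 symbols. Gdf5 and Scx were in the set because the study listed both as lower in these same mice, so their genotype difference is given as a description without a test. In the paper's real-time PCR of another FVB/N cohort, Gdf5 was again lower, whereas the Scx decrease approached but did not reach significance. The paper also ran this PCR in a second mouse strain, which resists the kidney disease. There it reported Scx as lower and Gdf5 as unchanged in Cd151-/- glomeruli. The other 8 genes were chosen by family, and those detected on at least 1 array (Bmp4, Bmp7, Bmpr1a and Nog) were tested.

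Glomerular RNA from 4 Cd151+/+ and 4 Cd151-/- mice was hybridised to 8 arrays of the Illumina MouseRef-8 v1.1 type, 1 mouse per array. All were male, of the FVB/N strain and 3 weeks of age. The Cd151-/- mice carry a homozygous germline deletion of Cd151, so every cell of the animal lacks the gene, and the Cd151+/+ mice are the wild type controls. Glomeruli were collected with magnetic beads perfused through the heart and a collagenase digest of the minced kidney, and total RNA of the whole isolate was labelled. In such bulk RNA, fewer cells of a type and less RNA per cell cannot be told apart.

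Bone morphogenetic proteins (BMPs) and growth and differentiation factors (GDFs) are secreted dimers of the transforming growth factor beta superfamily. They bring together type I and type II serine/threonine kinase receptors at the cell surface. The type I receptor then phosphorylates Smad1, Smad5 or Smad9, which enter the nucleus with Smad4 and switch on genes such as those of the Id family. Noggin and gremlin bind the ligands outside the cell and keep them from the receptors. In the kidney, Bmp7 is required for the formation of nephrons, Bmp4 and Grem1 act in the outgrowth and branching of the ureteric bud, and podocytes and mesangial cells carry BMP receptors. Gdf5 is best known from the development of joints and cartilage, and Scx (scleraxis), a basic helix-loop-helix transcription factor, from tendon.

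The signals were corrected for each array's background, quantile-normalised and put on the log2 scale, and are called normalised log2 signal below. A probe was called detected on an array where its deposited detection p-value, which places the probe among that array's negative controls, was 0.05 or lower. The 14967 probes detected on at least 1 array were fitted. Normalised levels of about 5 and below lie at background. Somewhat above that level, detection depended on the array. Smad1 at 5.40 was not detected in Cd151-/- mouse 3, whereas Gdf5 at 5.23 was detected in Cd151-/- mouse 1. Levels of different probes cannot be set against each other. The arrays differed in brightness: the background was 123 to 135 on 4 arrays (Cd151+/+ mice 3 and 4, Cd151-/- mice 1 and 2) and 59.0 to 69.5 on the other 4 (Cd151+/+ mice 1 and 2, Cd151-/- mice 3 and 4). Each set of arrays held 2 mice of each genotype, which allowed each difference to be taken within a set as well. The labels name no slide or scan, and the sets were formed after the arrays had been seen. All 3 Cd151 probes were detected in the 4 Cd151+/+ mice and in 0 of the Cd151-/- mice. As for the tissue, the podocyte genes Podxl, Wt1, Ptpro, Cdkn1c and Tcf21 and the endothelial genes Pecam1, Tek, Ehd3 and Cdh5 were detected on all 8 arrays. No probe carried the podocyte symbols Nphs1 or Synpo. Genes of other nephron segments were detected as well, among them Slc34a1 and Slc5a2 of the proximal tubule and Umod and Slc12a1 of the loop of Henle.

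Of the 10 genes, 6 were detected on at least 1 array and 4 were not. Scx, Bmp4, Bmp7 and the first of the Bmpr1a probes were detected in all 8 mice. Gdf5 was detected in 6 mice, and Nog in 3. Bmp2, Bmp6, Bmpr2 and Grem1 were not detected in any mouse, with deposited signals between 0.850 and 1.15 times the array background over their 5 probes. The plot of levels by mouse shows the genotypes apart for Gdf5 and Scx and overlapping for the other genes.

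**Figure D1:**
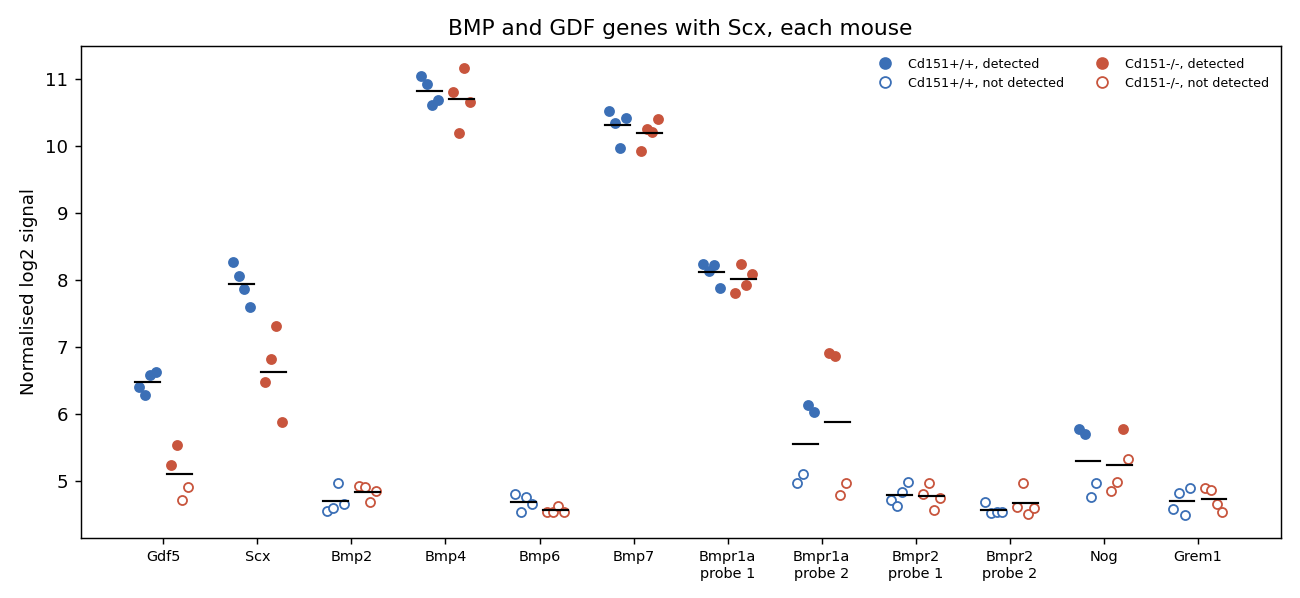
Normalised log2 signal (vertical axis) of each of the 12 probes in each of 8 mice, Cd151+/+ in blue and Cd151-/- in red. Filled points are detected and open points are not, and the bars are group means over 4 mice. Only for Gdf5 and Scx do all Cd151-/- points lie below all Cd151+/+ points, and the height of different probes cannot be compared.

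Gdf5, the ligand of joint and cartilage development, had a low signal in wild type glomeruli and lay at or near background in glomeruli without Cd151. Its normalised log2 signal was 6.40, 6.28, 6.57 and 6.62 in Cd151+/+ mice 1 to 4. In Cd151-/- mice 1 to 4 it was 5.23, 5.54, 4.71 and 4.90. All Cd151-/- mice were below all Cd151+/+ mice, with a gap of 0.75 between the closest mice, and the probe was not detected in Cd151-/- mice 3 and 4. The group means were 6.47 ± 0.16 (SD, n = 4) in Cd151+/+ and 5.09 ± 0.37 (SD, n = 4) in Cd151-/- glomeruli. The difference, Cd151-/- minus Cd151+/+, was -1.38 with a standard error of 0.23. Since 2 of the 4 Cd151-/- mice had no signal above background, this value is a difference of normalised signals and not a measured fold in transcript.

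The deposited Gdf5 signals show how close to background these levels were. Relative to the background of its own array, the signal was 1.39, 1.37, 1.72 and 2.05 in Cd151+/+ mice 1 to 4. In Cd151-/- mice 1 to 4 it was 1.26, 1.42, 1.00 and 1.07 times background. On this scale the genotypes overlapped across all 8 arrays, and did not overlap within the set of brighter arrays or within the set of dimmer arrays. The difference in normalised log2 signal was -1.21 within the higher-background arrays. It was -1.54 within the lower-background arrays, where neither Cd151-/- mouse had a detected signal, so that it is set by the background level there. With so little signal above background, the size of the Gdf5 difference depended on how the background was handled: it was -0.55 when the background was left in and -0.84 with a larger offset of 50 added before taking logs.

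**Figure D2:**
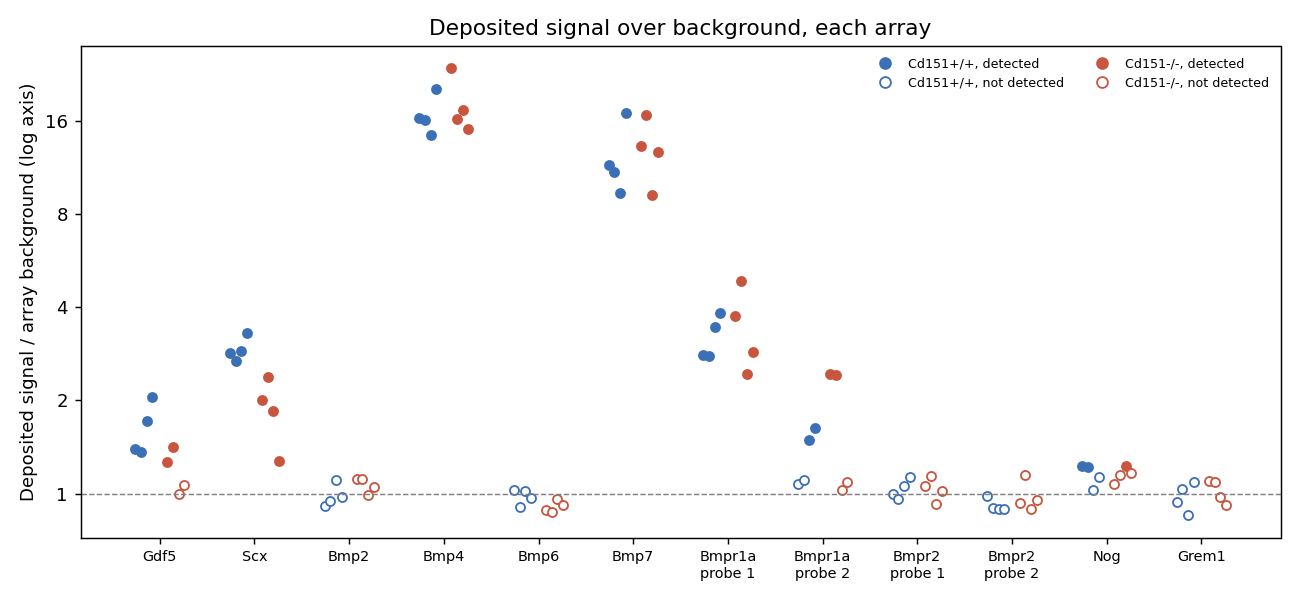
Deposited signal divided by the background of the same array (vertical axis, log scale) for the 12 probes in 8 mice, with open points for probes not detected and the dashed line at the background. Bmp4 lay between 14.4 and 23.6 times background, whereas Gdf5 reached at most 2.05 and the probes of Bmp2, Bmp6, Bmpr2 and Grem1 lay around the line.

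Scx, the transcription factor of tendon progenitors, was detected in every mouse of both genotypes and was lower in Cd151-/- glomeruli. Its normalised log2 signal was 8.26, 8.06, 7.87 and 7.59 in Cd151+/+ mice 1 to 4. In Cd151-/- mice 1 to 4 it was 6.48, 6.82, 7.31 and 5.87. The genotypes did not overlap, with a gap of 0.28 between the lowest Cd151+/+ mouse and the highest Cd151-/- mouse. The Cd151-/- mice were spread more widely, with mouse 3 close to the wild type range and mouse 4 far below it. The means were 7.95 ± 0.29 (SD, n = 4) in Cd151+/+ and 6.62 ± 0.61 (SD, n = 4) in Cd151-/- glomeruli. The difference was -1.32 with a standard error of 0.31, or 2.50-fold lower, and it was -1.57 within the lower-background arrays and -1.08 within the higher-background arrays.

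Relative to array background, the Scx signal was 2.84, 2.68, 2.89 and 3.30 in Cd151+/+ mice 1 to 4 and 2.01, 2.37, 1.85 and 1.28 in Cd151-/- mice 1 to 4. On this scale, which involves no quantile normalisation, the Cd151-/- mice also stayed below all Cd151+/+ mice. With the background left in, the difference in log2 signal was -0.79. Among the 14967 probes, 1.46% had all 4 Cd151-/- mice below all 4 Cd151+/+ mice. Gdf5 and Scx were 2 of these probes, and ranked 16 and 21 from the most negative difference. Since both genes were chosen on this contrast, these places add nothing to the reason they were chosen.

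**Figure D3:**
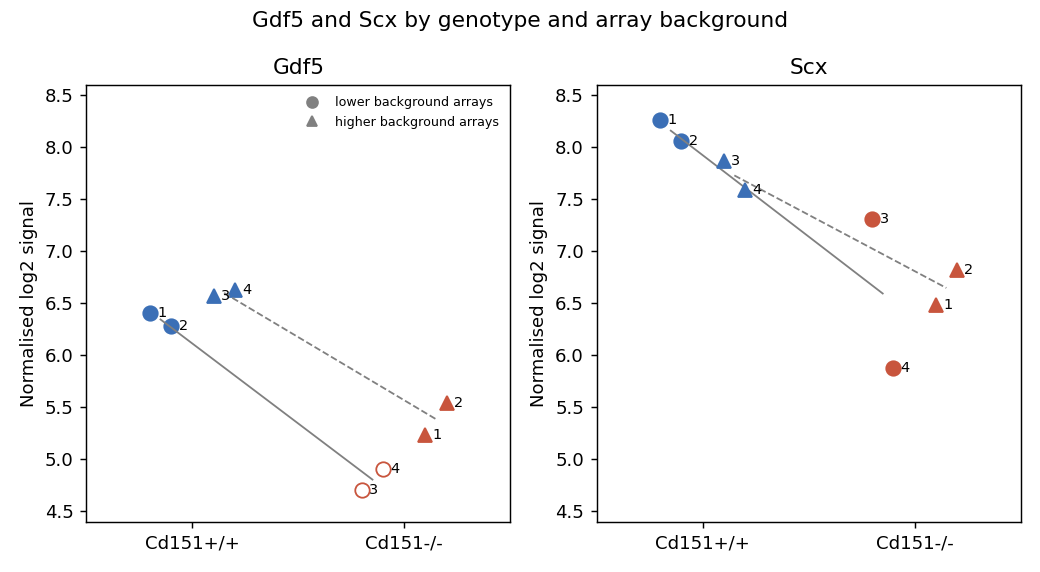
Normalised log2 signal (vertical axis) of Gdf5 (left) and Scx (right) in Cd151+/+ (blue) and Cd151-/- (red) mice, each point labelled with its mouse number. Circles are arrays of lower and triangles of higher background, open symbols were not detected, and lines join the group means within each set. Both genes were lower in Cd151-/- mice within each set of arrays, from -1.54 to -1.08 on the log2 scale, and the -1.54 of Gdf5 is taken against 2 mice in which it was not detected.

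From mouse to mouse, Gdf5 and Scx followed different patterns. After each genotype's mean was removed, the Pearson correlation of their levels over the 8 arrays was -0.20. Gdf5 was higher on the higher-background arrays by 0.25 among Cd151+/+ and 0.58 among Cd151-/- mice, whereas Scx differed between the sets by -0.43 and 0.05. Of 9495 probes detected on all 8 arrays, the probes most like Gdf5 in these within-genotype deviations were those of Wdr77 (0.99), Itm2b (0.98) and Fnta (0.98). Those most like Scx, of 9494, were the probes of Pdlim2 (0.99), Rab8b (0.98) and F730014I05Rik (0.98). These correlations rest on 8 points that share array brightness, and they were picked as the highest of all these probes.

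In the Cd151-/- mice, Scx had the same order as the summed signal of the glomerular endothelial markers, lowest in mouse 4, then mice 1, 2 and 3. That sum, over 8 detected genes of 8 on the list, was 26935, 35348, 46918 and 24214 in Cd151-/- mice 1 to 4. In Cd151+/+ mice 1 to 4 it was 42870, 46521, 38353 and 37176, and mice 1 and 2 stood in the opposite order to Scx there. The match of order in Cd151-/- mice rests on 4 mice and was picked out afterwards from several marker lists. The mean of 7 of the 8 genes was lower in Cd151-/- glomeruli, and limma called 0 of them at an unadjusted p of 0.05. The endothelial gene Kdr was detected in only 2 Cd151+/+ mice and in 0 of the Cd151-/- mice.

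Other marker lists also stood beside the Gdf5 and Scx values. The proximal tubule sum over 7 of 8 genes lay between 54110 and 81685 in Cd151+/+ mice and between 69879 and 96431 in Cd151-/- mice, with all 7 means higher in Cd151-/- glomeruli. The loop, distal tubule and collecting duct list went mostly the other way, with 4 means lower and 2 higher. Its sum over 6 of 7 genes lay between 27393.5 and 50807.5 in Cd151+/+ and between 19628.5 and 33402.6 in Cd151-/- mice. The leukocyte sum over 3 of 7 genes lay between 747 and 1062 in Cd151+/+ and between 638 and 1106 in Cd151-/- mice. The erythroid sum over 4 of 5 genes lay between 38031 and 50061 in Cd151+/+ mice and between 17856 and 37438 in Cd151-/- mice, without overlap. Of the erythroid genes Hba-a1 and Alas2 were lower at an unadjusted p of 0.05 in limma. The mesangial and smooth muscle sum over 6 of 8 genes was 26126, 25697, 25732 and 15481 in Cd151-/- mice 1 to 4, above the Cd151+/+ values of 16725 to 22574 in 3 mice and below them in mouse 4. Its genes went both ways: Pdgfrb differed by -0.74 at an unadjusted p of 0.05, whereas Acta2 and Tagln differed by 0.38 and 0.45 without passing. No marker passed Benjamini-Hochberg adjustment. The fibroblast markers Lum and Postn were not detected on any array, and the sum over the other 4 of 6 lay between 363 and 667 in Cd151+/+ mice and between 221 and 684 in Cd151-/- mice. The parietal epithelial sum over 3 of 5 genes lay between 665 and 1035 in Cd151+/+ mice and between 1008 and 1478 in Cd151-/- mice. The part of any of these lists in the values of Gdf5 and Scx was not tested.

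Scx lies within the span of Bop1, a gene of ribosome biogenesis, in the mouse assembly GRCm38.p6. The Bop1 probe was detected in 2 mice of each genotype, and its difference was 0.76 with a standard error of 0.56 (adjusted p = 0.918 in limma). The higher Bop1 mean was that of Cd151-/- glomeruli.

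Of the 8 genes chosen by family, none passed the test. The 4 that could be tested, Bmp4, Bmp7, Bmpr1a and Nog, gave 0 calls at an unadjusted p of 0.05 in limma and 0 after Benjamini-Hochberg adjustment, against 4.3% and 0.0334% of all 14967 probes. Their group ranges overlapped in every case.

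Bmp4, a ligand of ureter and glomerular development, was among the well-measured genes, at 14.4 to 23.6 times array background. Its normalised log2 signal was 11.05, 10.93, 10.61 and 10.69 in Cd151+/+ mice 1 to 4 and 10.81, 10.20, 11.16 and 10.65 in Cd151-/- mice 1 to 4. The highest and the lowest value both came from Cd151-/- mice. The difference was -0.11 with a standard error of 0.24 and a 95% confidence interval from -0.65 to 0.43 (limma adjusted p = 0.945, two-sided exact permutation p = 0.657). The interval covers differences in both directions.

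Bmp7, the ligand needed for nephron formation, was also detected in every mouse, at 9.24 to 16.9 times background. The levels were 10.52, 10.34, 9.98 and 10.42 in Cd151+/+ mice 1 to 4 and 9.92, 10.25, 10.22 and 10.40 in Cd151-/- mice 1 to 4. The ranges of the genotypes covered nearly the same interval. The difference was -0.12 with a standard error of 0.21 and a 95% confidence interval from -0.59 to 0.35 (limma adjusted p = 0.937, exact permutation p = 0.457).

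Bmp2 and Bmp6, which share receptors with Bmp4 and Bmp7, were not well above background on any array and have no measured difference. The Bmp2 level was 4.54 to 4.96 in Cd151+/+ and 4.68 to 4.93 in Cd151-/- mice. The Bmp6 level was 4.53 to 4.80 and 4.53 to 4.62. These ranges are those of the background itself, and transcript below the sensitivity of these probes was not measured.

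Bmpr1a encodes a type I receptor for Bmp2 and Bmp4, and was read by 2 probes that behaved differently. The first probe was detected in all mice, with levels of 8.24, 8.13, 8.22 and 7.88 in Cd151+/+ mice 1 to 4 and 7.80, 8.23, 7.93 and 8.08 in Cd151-/- mice 1 to 4. Its difference was -0.11 with a standard error of 0.20 and a 95% confidence interval from -0.55 to 0.34 (limma adjusted p = 0.937, exact permutation p = 0.429). The second probe gave 4.96, 5.10, 6.13 and 6.02 in Cd151+/+ mice and 6.91, 6.86, 4.79 and 4.96 in Cd151-/- mice. It was detected only on the 4 higher-background arrays, and exceeded its level on the other arrays by 1.04 in Cd151+/+ and 2.01 in Cd151-/- mice. Its difference was 0.33 with a standard error of 0.52 and a 95% confidence interval from -0.81 to 1.47 (limma adjusted p = 0.925, exact permutation p = 0.629), and was 0.81 within the higher-background and -0.16 within the lower-background arrays. The probes thus differed in the sign of the genotype difference, which neither resolved from 0.

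Bmpr2, the type II receptor that pairs with Bmpr1a, was not detected by either of its 2 probes. The levels were 4.63 to 4.97 and 4.52 to 4.67 in Cd151+/+ mice, and 4.56 to 4.96 and 4.51 to 4.97 in Cd151-/- mice.

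Nog, which encodes the antagonist noggin, was near the limit of detection. Its level was 5.77, 5.70, 4.76 and 4.96 in Cd151+/+ mice 1 to 4 and 4.85, 4.98, 5.77 and 5.33 in Cd151-/- mice 1 to 4. The probe was detected in Cd151+/+ mice 1 and 2 and in Cd151-/- mouse 3, all on lower-background arrays, at up to 1.23 times background. The higher-background arrays read 0.88 lower in Cd151+/+ and 0.64 lower in Cd151-/- mice. The genotype difference was -0.07 with a standard error of 0.30 and a 95% confidence interval from -0.74 to 0.60 (limma adjusted p = 0.972, exact permutation p = 0.886). Grem1, which encodes gremlin 1, was not detected, with levels of 4.48 to 4.88 in Cd151+/+ and 4.54 to 4.89 in Cd151-/- mice.

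The remaining genes of the pathway were read from lists of other ligands, receptors and coreceptors, secreted antagonists and modulators, Smads and their regulators, BMP target genes, and Scx partners and tendon genes. Of 85 listed genes, 81 had a probe and 55 were tested, 1 probe each. The mean was higher in Cd151-/- glomeruli for 34 and lower for 21, with a median difference of 0.10 where that of all tested probes was -0.0073. At an unadjusted p of 0.05 in limma, 1 gene rose and 3 fell, which is 7.27% of the 55 against 4.3% of all probes (1.69% higher and 2.61% lower). None passed Benjamini-Hochberg adjustment (lowest adjusted p = 0.918), and in none did the genotypes separate without overlap, where 2.31% of all probes did. The plot of differences by list shows the other ligands, receptors and antagonists spread around 0.

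**Figure D4:**
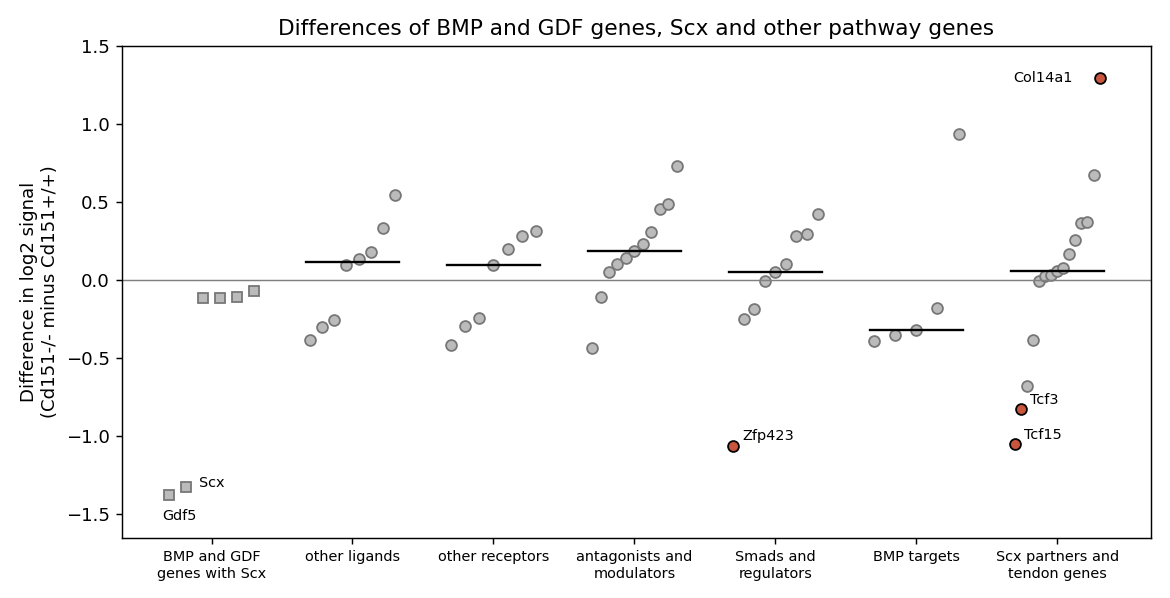
Difference in normalised log2 signal (vertical axis, Cd151-/- minus Cd151+/+) of the tested genes of each list, 1 probe per gene. Squares are Gdf5, Scx, Bmp4, Bmp7, Bmpr1a and Nog, circles are other pathway genes, red marks an unadjusted p of 0.05 or lower in limma, and bars are list medians. The marked genes are Zfp423, Tcf3 and Tcf15 on the negative side and Col14a1 on the positive side, and Gdf5 and Scx carry no test.

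Among the other ligands, 8 of 17 were tested, 5 with a higher and 3 with a lower mean, and none passed an unadjusted p of 0.05. The lowest p-values belonged to Bmp8b, Gdf15 and Bmp3. Gdf15, a distant family member induced by cell stress, differed by 0.55 with a standard error of 0.48. Bmp3 differed by -0.30 with a standard error of 0.32, and Bmp8b, detected in 1 mouse only, by -0.38 with a standard error of 0.22. Bmp8a, Bmp10, Gdf2, Gdf6 and Gdf7, the last pair being the closest relatives of Gdf5, were not detected on any array.

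Among the other receptors and coreceptors, 7 of 9 were tested, 4 with a higher and 3 with a lower mean, and again none passed. Acvr2b, a type II receptor shared with activins, had the lowest p: the levels were 10.79, 10.53, 10.57 and 10.33 in Cd151+/+ and 10.12, 10.23, 10.41 and 9.79 in Cd151-/- mice 1 to 4. The difference was -0.42 with a standard error of 0.22 (limma p = 0.0792, adjusted p = 0.918, exact permutation p = 0.0571). The coreceptor genes Rgmb and Hjv differed by -0.29 and 0.32 with standard errors of 0.23 and 0.22, and this Hjv probe was detected in 1 mouse only. Further probes gave -0.10 for Rgmb and, with the opposite sign, -0.09 for Hjv.

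Of the secreted antagonists and modulators, 11 of 18 were tested, 9 with a higher and 2 with a lower mean, and none passed. Chrd encodes chordin, an antagonist that holds BMP ligands outside the cell. Its level was 6.61, 6.73, 6.77 and 6.36 in Cd151+/+ mice 1 to 4 and 7.39, 6.76, 6.74 and 8.51 in Cd151-/- mice 1 to 4. The excess of the Cd151-/- mean rested on mice 1 and 4, and the difference was 0.73 with a standard error of 0.36 (limma p = 0.0687, adjusted p = 0.918, exact permutation p = 0.0857). Twsg1, whose product forms complexes with chordin and BMPs, differed by 0.49 with a standard error of 0.36, and Nbl1, an antagonist of the DAN family, by -0.44 with a standard error of 0.27.

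Among Smads and intracellular regulators, 9 of 14 were tested, and Zfp423 was the gene that fell at an unadjusted p of 0.05. That is 11.1% of the 9 against 4.3% of all probes, and rests on 1 gene. Zfp423 encodes a zinc finger protein that joins Smads on BMP target genes. Its level was 8.04, 8.30, 7.17 and 7.25 in Cd151+/+ mice 1 to 4 and 6.11, 6.70, 7.51 and 6.20 in Cd151-/- mice 1 to 4. Only Cd151-/- mouse 3 reached the wild type range. The difference was -1.06 with a standard error of 0.36 (limma p = 0.0141, adjusted p = 0.918, exact permutation p = 0.0857), and a further Zfp423 probe gave -0.67 with a standard error of 0.28. Skil, a repressor of Smads, differed by 0.43 with a standard error of 0.31. Smad1 differed by 0.28 with a standard error of 0.23, and its other 2 probes gave -0.20 and -0.02.

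Of the textbook BMP target genes, 5 of 9 were tested, 1 with a higher and 4 with a lower mean, with a median difference of -0.32 and none past the threshold. Id1, the best-known direct target, had levels of 11.85, 11.73, 12.01 and 11.68 in Cd151+/+ mice and 11.72, 11.79, 11.56 and 10.92 in Cd151-/- mice 1 to 4. Only Cd151-/- mice 3 and 4 were below the wild type range, and the difference was -0.32 with a standard error of 0.24. Hey1, a transcriptional repressor also driven by Notch, differed by -0.35 with a standard error of 0.27. Id2 lay on the other side: it was detected in 1 Cd151+/+ and 3 Cd151-/- mice and differed by 0.94 with a standard error of 0.44 (limma p = 0.0558, adjusted p = 0.918, exact permutation p = 0.143).

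The Scx partners and tendon genes held the other calls. Of 18 genes, 15 were tested, of which 1 rose and 2 fell at the unadjusted threshold. That is 20% of the 15 against 4.3% of all probes (1.69% higher and 2.61% lower). The share rests on few genes, and the 1 that rose, Col14a1, entered the test through detection in Cd151-/- mice alone. Tcf15 encodes paraxis, the basic helix-loop-helix protein most closely related to scleraxis. Its level was 8.02, 7.43, 6.66 and 6.55 in Cd151+/+ mice 1 to 4 and 5.50, 6.05, 7.45 and 5.46 in Cd151-/- mice 1 to 4. As with Scx, mouse 3 was the highest and mouse 4 the lowest of the Cd151-/- mice, and here mouse 3 lay inside the wild type range. The difference was -1.05 with a standard error of 0.47 (limma p = 0.0454, adjusted p = 0.918, exact permutation p = 0.143), and it missed the threshold under 12 of 18 alternative settings.

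Tcf3 is the current symbol of an E protein, the class of broadly expressed partners with which scleraxis binds DNA. The array uses older symbols for some genes, such as Idb1 for Id1, and its Tcf3 probes were matched by symbol alone. Whether they read the E protein transcript was not tested. Its level was 11.87, 11.92, 10.92 and 11.30 in Cd151+/+ mice 1 to 4 and 10.68, 10.78, 11.31 and 9.92 in Cd151-/- mice 1 to 4. Mouse 3 was again the highest and mouse 4 the lowest Cd151-/- mouse. The difference was -0.82 with a standard error of 0.33 (limma p = 0.0300, adjusted p = 0.918, exact permutation p = 0.0857), a further probe gave -0.85 with a standard error of 0.38, and the threshold was missed under 5 of 18 settings. The endothelial sums given above have the same highest and lowest Cd151-/- mouse as Tcf15 and Tcf3. Zfp423 shared only the highest, mouse 3, and was lowest in mouse 1 (6.11, against 6.20 in mouse 4). The part of these sums in the Tcf15, Tcf3 and Zfp423 values was not tested.

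Col14a1, a collagen attached to the fibrils of tendon and other connective tissue, was the only pathway gene that rose at an unadjusted p of 0.05. Its level was 4.95, 5.16, 5.25 and 5.16 in Cd151+/+ mice 1 to 4, where it was not detected, and 5.84, 5.15, 7.38 and 7.33 in Cd151-/- mice 1 to 4, where it was detected in mice 1, 3 and 4. The group means were 5.13 and 6.42 (limma p = 0.0154, adjusted p = 0.918, exact permutation p = 0.114). With the Cd151+/+ mice set to the lowest detected signal of their arrays, the level was 2.06-fold higher in Cd151-/- glomeruli. That value is no lower bound, since Cd151-/- mouse 2 was not detected either and the size depended on the processing. Over the alternatives, the log2 difference ranged from 0.57 without normexp to 1.64 without Cd151-/- mouse 2. The probe entered the test through its detection in Cd151-/- mice alone, so its p and its place in the count depend on the group in which it was high, and under the stricter filter, which asks for all 4 mice of a genotype, it was not tested. The difference was 2.30 within the lower-background arrays and 0.29 within the higher-background arrays. The tendon genes Col3a1 and Thbs4 and the cartilage gene Sox9 were not detected on any array.

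How far each difference moved under other processing is drawn for the 6 tested or described genes. Gdf5 and Scx kept their negative sign in each of 18 alternatives, which include each mouse left out in turn. Settings that change only the filter, the block or the variance model return the same difference and cannot alter the sign. Both genes were chosen as lower in these mice, so the kept sign adds nothing to that reason. The differences of Bmp4, Bmp7, the first Bmpr1a probe and Nog stayed between -0.51 and 0.092.

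**Figure D5:**
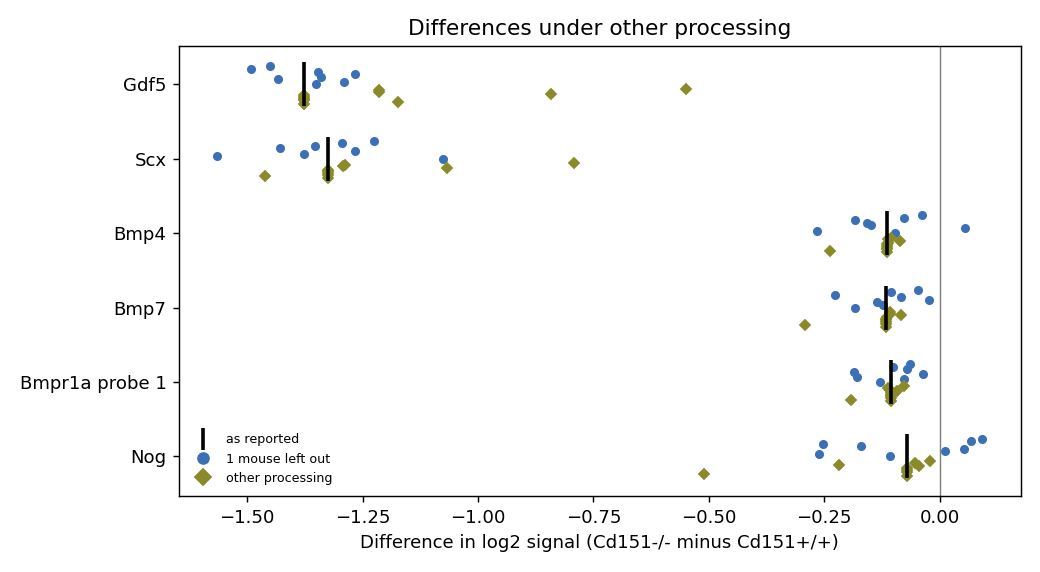
Difference in log2 signal (horizontal axis, Cd151-/- minus Cd151+/+) of 6 genes as reported (black bars), with 1 mouse left out (blue circles) and under other processing (olive diamonds). Gdf5 ranged from -1.49 to -0.55 and Scx from -1.56 to -0.79, whereas Bmp4 and Nog changed sign when single mice were left out.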

How the data were processed

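The authors labelled glomerular RNA of 8 mice, hybridised it to MouseRef-8 v1.1 BeadChips and, in GenomeStudio, exported a signal intensity per probe and array. The deposited intensity values are neither background-subtracted nor normalised. The deposited detection p-value places each probe among the array's negative controls. The paper's own values came from cubic spline normalisation. In R 4.3.3 with limma 3.58.1, each array's background was inferred from its detection p-values, followed by neqc (offset 16, quantile normalisation, log2), lmFit and eBayes on the 14967 probes with a detection p of 0.05 or lower on at least 1 array, and Benjamini-Hochberg adjustment across these probes. Permutation tests of single probes were exact and two-sided over 70 relabelings, with a smallest p of 0.0286. The number of arrays limits the precision.

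The genes of the set and all gene lists were chosen with earlier results of these data known. The text names all 10 genes and, from each pathway list, the 3 genes with the lowest p, every gene with an unadjusted p of 0.05 or lower, and the 3 probes most like Gdf5 and Scx. The probe with the highest mean stood for a gene. Symbols were matched to assembly GRCm38.p6, 12036 directly and 5204 by synonym. Marker sums add linear normalised signals. Alternatives were no normexp, cubic spline through 15 quantiles, scaling to the 75th percentile, offset 50, leaving out the detection filter, requiring detection in all 4 mice of a genotype, mouse number as a block, trended and robust variance, array weights and each mouse left out. The background set as a block was added after the data were seen. The procedure was tested on simulated data. No sequences are shown, and the results of 2 marker genes and of the podocyte sum are not reported here.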

Additional observations from a re-analysis of the deposited data

How the results depend on the processing

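The Gdf5 difference of -1.38 moved to -0.55 without normexp, -0.84 with an offset of 50, -1.17 with array weights and -1.21 with the cubic spline or 75th percentile scaling, and was -1.49 to -1.27 with single mice left out. The Scx difference of -1.32 moved to -0.79 without normexp, and was -1.56 to -1.08 with single mice left out. Bmp4, Bmp7, Bmpr1a and Nog, by the probe that stands for each, did not pass the unadjusted threshold in any setting that tested them (17 for Nog, 18 for the others). Bmp2, Bmp6, Bmpr2 and Grem1 were fitted only without the detection filter, where the count of passing family genes was also 0. With single mice left out, the Bmp4 difference ranged from -0.27 to 0.056, that of Nog from -0.26 to 0.092 and that of the second Bmpr1a probe from -0.0034 to 0.70. Bmp4 changed sign without Cd151-/- mouse 2 (0.056), Nog without Cd151+/+ mouse 1 (0.092) or 2 (0.068) or Cd151-/- mouse 1 (0.052) or 2 (0.011), and the second Bmpr1a probe without Cd151-/- mouse 1 (-0.0034). That probe reached 1.22 with array weights, where it passed the unadjusted threshold (limma adjusted p = 0.0989, from 0.0989 to 1.00 over its settings).

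The pathway genes that rose, 1 as reported, numbered 0 with detection on all 4 arrays of a group, 11 with array weights, 5 with the background set as a block and 1 to 3 with single mice left out (3 without Cd151-/- mouse 3 or 4, 2 without Cd151+/+ mouse 4 or Cd151-/- mouse 2). Those that fell, 3 as reported, numbered 7 with array weights and 1 to 3 with single mice left out (1 without Cd151+/+ mouse 1 or 2 or Cd151-/- mouse 1 or 4). No pathway gene passed adjustment in any setting. Zfp423 stayed past the threshold in all 18 settings, and Col14a1 missed it with 75th percentile scaling (0.86, limma adjusted p = 0.995, from 0.136 to 1.00 over its settings).

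Of all probes, 253 rose and 390 fell by the unadjusted threshold. These counts were 139 and 250 with 75th percentile scaling, 431 and 663 with no detection filter, 2336 and 2480 with array weights, and 780 and 910 with the background set as a block. With single mice left out they were 122 to 628 and 195 to 763, the highest both without Cd151-/- mouse 3. The 75th percentile scaling moved the median of all probes to -0.07.

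Deviations of same-numbered mice correlated at -0.58 to -0.0086, and 0 of 8 mice were most like their own number. Same-numbered mice of the genotypes always lay in different background sets. This check therefore cannot decide whether mouse numbers pair the samples. With the replicate number as a block, 1 pathway gene and 215 probes fell. The cause of these changes was not tested.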
